A study of Mus musculus with 6 samples.

Results

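The interleukin-6 family pathway was followed through 10 of its genes in the mouse cortex after stroke. By their place in the pathway they are the ligands Lif, Osm and Cntf and the receptor chains Il6st, Osmr, Lifr and Il6ra. The others are the kinase Jak2, the transcription factor Stat3 and its feedback inhibitor Socs3. The choice was made with earlier results of these data known. The tables gave a level for 8 of these 10 genes, and for 6 of them in every library. For comparison, 15441 genes had a level in some library, 11750 of them in every one. The libraries came from the whole ipsilateral cortex of male C57/BL6J mice, 6 to 8 weeks old, with no genetic alteration named. In the stroke groups, a light-activated dye (photothrombosis) clotted the cortical vessels, and tissue was taken on day 1, 3, 7, 14 or 28. The control was a sham operation with tissue taken on day 7 after it, so each stroke library was compared with the same sham library. Each library is the pooled RNA of 3 mice and there is 1 library per group, so no difference below has a replicate check, and no SD or p-value can be given.

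Ligands of the interleukin-6 family are secreted by injured and immune cells and bind receptor complexes that share the chain gp130, the product of Il6st. Gp130 pairs with a second signalling chain (the oncostatin M receptor from Osmr, or the leukaemia inhibitory factor receptor from Lifr) or is joined by the ligand-binding interleukin-6 receptor from Il6ra. Janus kinases bound to these chains, Jak2 among them, then phosphorylate Stat3, which moves to the nucleus and turns on genes that include Socs3, whose product blocks the receptor complex. In the brain this pathway is known for its part in the reaction of astrocytes to injury.

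Values are given as the authors' FPKM, read fragments scaled by the length of the transcript and by the size of the library, so levels of different genes can be set side by side. The tables hold an FPKM for each transcript start, transcript end or splicing event and not for each gene. The level of a gene was taken as the largest of its summed start events, its summed end events and any single event. A gene with no event in a library is called not listed, which does not show that its RNA was absent. Ratios to sham are log2((FPKM + 0.1)/(sham FPKM + 0.1)). A gene was compared at a given day when it reached an FPKM of 1 in that library or in sham, and it is called higher or lower when the log2 ratio was at least 1 in size, that is 2-fold.

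The sequences of Stat3 are shown first because its splice sites and its start site carry much of what the tables hold for this gene. Stat3 (ENSMUSG00000004040) lies on the minus strand at chr11:100885098-100939540 of GRCm38. Exon 21 ends at either of 2 splice sites that lie 3 bases apart, so the exon spans chr11:100893074-100893286 or chr11:100893077-100893286. The 3 bases, in capitals below, keep the reading frame and fall on codons 700 and 701, a few codons before the tyrosine that Janus kinases phosphorylate. Each line gives 30 bases on either side of the junction of exon 21 with exon 22, 5′ to 3′, read from the annotated transcripts.
Stat3-203, longer exon 21: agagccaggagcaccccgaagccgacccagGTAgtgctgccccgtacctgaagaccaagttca
Stat3-201, shorter exon 21: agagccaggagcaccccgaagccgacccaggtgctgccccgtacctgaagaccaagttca

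Exon 23 also has a longer and a shorter form, at chr11:100889478-100889590 and chr11:100889478-100889540. They give the alpha and beta forms of the protein. The beta form lacks the 50 bases in capitals, and since 50 is not a multiple of 3 its reading frame changes from there on, which replaces the transactivation domain at the end of the protein.
Stat3-203, alpha: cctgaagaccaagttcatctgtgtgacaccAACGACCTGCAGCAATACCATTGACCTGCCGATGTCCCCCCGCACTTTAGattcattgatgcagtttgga
Stat3-202, beta: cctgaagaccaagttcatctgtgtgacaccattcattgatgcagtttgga

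Stat proteins bind DNA at a palindrome written TTCNNNGAA, where N is any base. It reads the same on both strands. Among the 250 bases before the start sites in RefSeq (GRCm38.p6), it occurs in 2306 of 32851 windows, or 7.02%. The members have 10 such windows, since Lifr has a pair of start sites and Osm has no entry, and 1 of the 10 holds the palindrome, that of Socs3. It lies at chr11:117969502-117969530 on the minus strand, counted with the 10 bases on either side of it, and starts 154 bases before the start site.
Socs3 promoter, palindrome in capitals: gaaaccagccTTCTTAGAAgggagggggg
The windows of Osmr and Stat3 are printed for comparison, because these are the members that were over 2-fold higher than sham on day 1. Neither holds the palindrome in the 250 bases shown, so no base is in capitals. They lie at chr15:6874314-6874563 and chr11:100939541-100939790, both on the minus strand.
Osmr promoter: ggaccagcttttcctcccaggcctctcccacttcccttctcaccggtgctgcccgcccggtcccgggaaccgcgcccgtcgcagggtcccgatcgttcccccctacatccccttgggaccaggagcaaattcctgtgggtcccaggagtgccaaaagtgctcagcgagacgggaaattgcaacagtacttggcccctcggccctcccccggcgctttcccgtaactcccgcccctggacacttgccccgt
Stat3 promoter: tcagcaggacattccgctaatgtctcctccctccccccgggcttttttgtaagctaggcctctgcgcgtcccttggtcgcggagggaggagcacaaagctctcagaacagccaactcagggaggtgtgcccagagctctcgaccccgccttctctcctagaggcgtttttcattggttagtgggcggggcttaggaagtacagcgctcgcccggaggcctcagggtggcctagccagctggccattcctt
The start events in the libraries lie close to these RefSeq start sites, 17 bases downstream for Osmr and 136 bases downstream for the main start of Stat3. A letter match of this kind describes the window and is not a measured binding site.

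The libraries differ in ways that touch every gene below. Cortical neuron markers were abundant in all 6 libraries, as the labelled tissue would give, with Snap25 between 486 and 706 FPKM, while the microglial markers Cx3cr1 and Tmem119 were each listed in 2 libraries only. The number of genes listed ran from 13263 on day 14 to 13987 on day 7. The log2 ratio to sham fell with transcript length across genes on day 14 (Spearman's rho −0.413, across 12025 genes, which are not independent) and on day 1 (rho −0.254), against −0.0893 to 0.00325 at the other days. Genes that had an end event but no start event made up 8.72% of the 11750 genes listed in every library on day 14, against 2.8% to 4.85% elsewhere, and on day 14 they included Osmr, Lifr and Il6ra.

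The ligands among the members were seen at low level and in few libraries. Lif (chr11:4257557-4272514, plus strand), a cytokine that acts through gp130 and Lifr, was listed at 0.704 FPKM on day 1 and 0.0239 FPKM on day 28, and was not listed in sham or on days 3, 7 and 14. The day 1 value is carried by a start event that matches no annotated start of Lif and by an end event shared by its protein-coding transcripts Lif-201 and Lif-202. The day 28 value is carried by a start event of Lif-203, which is annotated as having no protein. Day 1 was therefore the one library in which the tables held an end of a protein-coding Lif transcript.

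Osm (chr11:4236420-4241026, plus strand) encodes oncostatin M, made mainly by myeloid cells, and lies next to Lif on chromosome 11. It was listed at 0.349 FPKM on day 3 and 0.571 FPKM on day 7, and was missing from the other 4 libraries. Its end event is the end of Osm-202, which is annotated as a processed transcript without a protein, while its start event, listed at 0.349 FPKM on day 3, is shared by Osm-202 and the protein-coding Osm-201. On day 7 the end event alone was listed, so the tables do not settle which transcript these values stand for. Cntf (chr19:12763660-12765632, minus strand), the ciliary neurotrophic factor of astrocytes and Schwann cells, had no event under its identifier and no event of any gene over its span in any library. None of the 3 ligands reached an FPKM of 1, so none was compared with sham.

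The shared chain was the most abundant of the 4 receptor chains in every library. Il6st (chr13:112464070-112510086, plus strand) was at 9.15 FPKM in sham, 8.57 on day 1, 13.6 on day 3, 11.8 on day 7, 7.12 on day 14 and 9.18 on day 28. The 2 libraries above the others were day 3 and day 7, the lowest was day 14, and day 28 was at the level of sham. The log2 ratios to sham were −0.09, 0.56, 0.37, −0.36 and 0.00 in the order of the days, so Il6st stayed within 2-fold of sham throughout.

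Osmr, the chain that binds oncostatin M together with gp130, showed the widest difference from sham of any member. Osmr (chr15:6813577-6874969, minus strand) was at 0.0306 FPKM in sham, 1.85 on day 1, 2.55 on day 3, 1.47 on day 7, 2.59 on day 14 and 1.21 on day 28. All 5 stroke libraries lay above sham, days 3 and 14 being nearly equal and day 28 the lowest of the 5. The log2 ratios to sham were 3.90, 4.34, 3.59, 4.36 and 3.32. At day 1 this was rank 79 from the highest of 11790 genes compared, and on day 3 rank 81 of 12052. Since Osmr reached an FPKM of 1 only in the stroke libraries, it could enter the comparison only as a higher gene. Its sham value is also below the 0.1 added to each value, so the ratios depend on that number: with 1 added in place of 0.1, the log2 ratio on day 1 is 1.47.

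The end events of Osmr show which transcript ends these values came from. The end of its protein-coding transcript Osmr-201 was at 1.65 FPKM on day 1, 2.36 on day 3, 1.15 on day 7, 2.5 on day 14 and 0.859 on day 28, and was not listed in sham. The whole sham value belongs to the end of Osmr-203, a transcript with a retained intron, which lay between 0.0306 and 0.255 FPKM across the 6 libraries. The start event was listed at 1.77, 2.47, 1.22 and 0.272 FPKM on days 1, 3, 7 and 28 and was not listed in sham or on day 14, so the day 14 level rests on end events alone. Its position matches the start of Osmr-205, a transcript with a retained intron. On day 28 its value was the same as that of the end of Osmr-206, also with a retained intron. The start on day 28 therefore need not belong to the protein-coding transcript. In all, the end of the protein-coding transcript was in the 5 stroke libraries and not in the sham library.

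Lifr, which pairs with gp130 for Lif and Cntf and also serves oncostatin M, stayed close to sham. Lifr (chr15:7090614-7197489, plus strand) was at 3.41 FPKM in sham, 4.86 on day 1, 3.25 on day 3, 3.17 on day 7, 3.63 on day 14 and 3.63 on day 28. Day 1 was the highest, and the other 5 libraries lay between 3.17 and 3.63 FPKM. The log2 ratios were 0.50, −0.07, −0.10, 0.09 and 0.09. The sum of its start events gave another order, with 3.26 FPKM in sham, 0.972 on day 1, 2.72 on day 3, 1.69 on day 7, no listed start on day 14 and 3.17 on day 28, so the day 1 value of Lifr is high by its ends and low by its starts.

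The balance of these 2 chains, which both pair with gp130, was not the same after stroke as in sham. The FPKM of Osmr divided by that of Lifr was 0.00898 in sham, 0.382 on day 1, 0.786 on day 3, 0.465 on day 7, 0.713 on day 14 and 0.332 on day 28. By these levels Lifr was the more abundant of both in every library, but by start events alone the order on day 1 was the other way, with Osmr at 1.77 and Lifr at 0.972 FPKM. These are ratios of levels within a library, so the scaling of the library cancels. The trend with transcript length does not, since the longest transcripts have 5491 bases for Osmr and 9655 for Lifr. The sham ratio also rests on the 0.0306 FPKM of the retained-intron end of Osmr, so its size is uncertain.

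Il6ra, the chain that binds interleukin-6 itself, was the least abundant of the receptors in the stroke libraries of days 1, 3, 14 and 28. Il6ra (chr3:89864059-89913196, minus strand) was at 1.21 FPKM in sham, 0.566 on day 1, 1.77 on day 3, 1.98 on day 7, 0.359 on day 14 and 0.905 on day 28. By these levels days 3 and 7 lay above sham, and days 1, 14 and 28 below it, with log2 ratios of −0.98, 0.51, 0.66, −1.52 and −0.39, of which day 14 was past 2-fold, as lower. The sham level comes from the start event, at 1.21 FPKM, while the end event was at 0.48 FPKM in sham, and on day 14 the end event alone was listed. With end events taken in every library, the log2 ratios on days 1, 3, 7, 14 and 28 were 0.20, 1.69, 1.84, −0.34 and 0.79, past 2-fold as higher on days 3 and 7, within 2-fold on day 14, and above 0 on days 1 and 28. The higher values on days 3 and 7 thus kept their direction, and the lower ones on days 1 and 28, and the call on day 14, did not hold by both kinds of event. Days 1 and 14 are also the libraries with the strongest trend with transcript length, and with a correction for it the log2 ratios were −0.78 and −1.27.

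**Figure D1:**
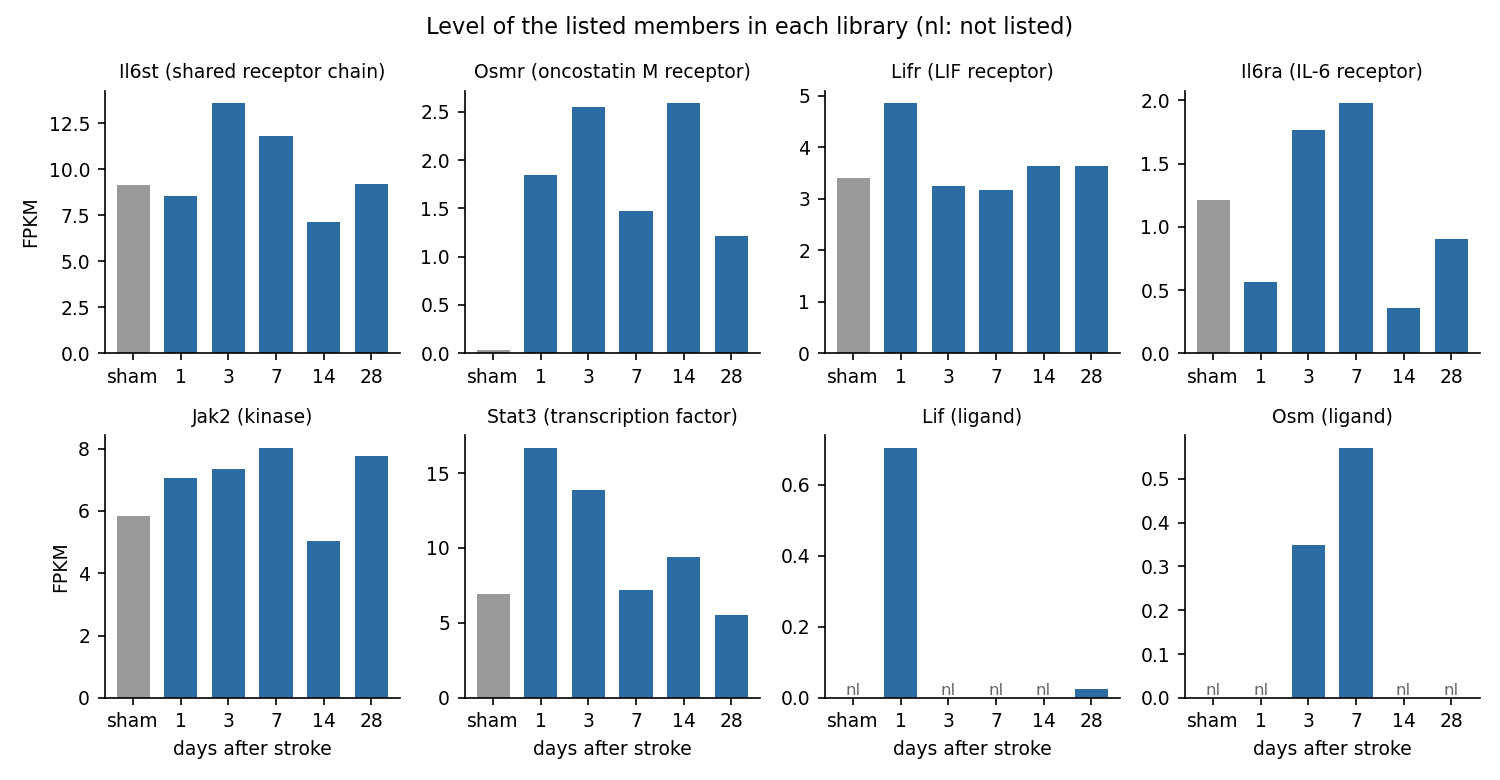
FPKM (vertical axis, from 0, a scale of its own for each gene) of the 8 listed members in sham (grey bar) and on days 1, 3, 7, 14 and 28 after stroke (blue bars), 1 library per bar, nl meaning not listed. Osmr is near 0 in sham and between 1.21 and 2.59 FPKM after stroke, Stat3 is highest on day 1 (16.7 FPKM) and day 3 (13.9 FPKM), and Lif and Osm are each seen in 2 libraries.

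Jak2, a kinase bound to gp130 that starts the signal, differed little between libraries. Jak2 (chr19:29251828-29313080, plus strand) was at 5.85 FPKM in sham, 7.05 on day 1, 7.34 on day 3, 8.03 on day 7, 5.02 on day 14 and 7.75 on day 28. It lay above sham in 4 of the 5 stroke libraries and below it on day 14. The log2 ratios ran from −0.22 on day 14 to 0.45 on day 7, all within 2-fold. The sham level comes from an end event, and by start events day 14 was above sham as well, at 5.02 against 4.35 FPKM (log2 ratio 0.20).

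Stat3, the transcription factor at the end of the chain, was most abundant early after stroke. It was at 6.95 FPKM in sham, 16.7 on day 1, 13.9 on day 3, 7.21 on day 7, 9.39 on day 14 and 5.5 on day 28. The libraries of days 1 and 3 stood above the other 4, with a smaller second high value on day 14, and day 28 was the lowest. At day 1 Stat3 was 2.41-fold higher than sham, a log2 ratio of 1.25 (1.38 with a correction for transcript length) and rank 415 from the highest of 11790 genes. Day 3 missed the threshold by a small margin with a log2 ratio of 0.99 (rank 1047 of 12052). At days 7, 14 and 28 the log2 ratios were 0.05, 0.43 and −0.33. In whole tissue, more RNA per cell and a larger share of cells that express the gene cannot be told apart, which holds for every difference given here.

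These levels rest on the main start of Stat3, which was listed in all 6 libraries. The end events of Stat3 are those of transcripts with retained introns and sum to between 0.0189 and 0.59 FPKM, so they do not stand for the level of the gene. The main start was at 6.87 FPKM in sham and 16.6 on day 1, and exon 23 of the alpha form at 6.95 and 16.7. Other events of Stat3 carry exactly the values of the main start in every library. The events are therefore not separate measurements, and their likeness is no check on the level.

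The forms of exon 21 shown above did not keep the same proportion across libraries. The longer form, with GTA, was at 1.3 FPKM in sham, 11.9 on day 1, 3.02 on day 3, 3.33 on day 7, 7.8 on day 14 and 2.46 on day 28. The shorter form was at 5.58 FPKM in sham, 4.75 on day 1, 10.8 on day 3, 3.8 on day 7, 1.54 on day 14 and 2.84 on day 28. The longer form thus made up 18.9% of both in sham, 71.4% on day 1, 21.8% on day 3, 46.7% on day 7, 83.5% on day 14 and 46.4% on day 28. At day 1 the whole excess of Stat3 over sham was in the longer form, and on day 3 more of it was in the shorter form.

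A caution belongs to these shares. They are estimates for whole transcripts, and the annotated transcripts with the longer exon 21 (6042, 4516 and 2506 bases) differ in length from the one with the shorter exon (2927 bases). The shares were highest on day 14 and day 1, the libraries with the strongest trend with transcript length, and the part of that trend was not tested. The shares of Stat3 ranged over 64.7 percentage points. Among 259 pairs of spliced forms around 1 intron that were listed in all 6 libraries with a sum of at least 5 FPKM in each, the median range was 4 percentage points (quartiles 0.847 and 14), and 10 pairs, Stat3 included, ranged at least as widely. Of the 12 such pairs whose outer exon ends differ by at most 6 bases, the median range was 17.6 percentage points (quartiles 6.01 and 52.6), and 2 ranged at least as widely, Stat3 included. The alpha and beta forms of exon 23 showed no such shift. The beta form made up between 0.0138% (sham) and 0.409% (day 1) of both, at no more than 0.0684 FPKM, so the alpha form was nearly the whole of Stat3 in every library.

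**Figure D2:**
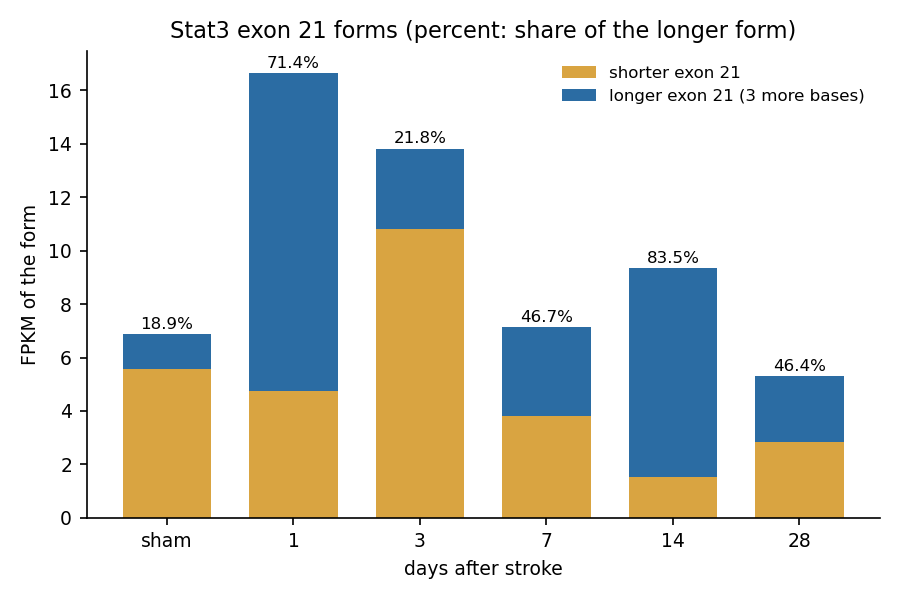
FPKM (vertical axis, from 0) of the shorter and longer forms of Stat3 exon 21, stacked, in sham and on days 1 to 28 after stroke, 1 library per bar, with the share of the longer form printed above. The longer form is 18.9% in sham and 21.8% on day 3, and 71.4% and 83.5% on days 1 and 14.

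Socs3 (chr11:117966079-117970047, minus strand), the inhibitor that Stat3 induces, had no event under its identifier, and no event of any gene lay over its span, in any of the 6 libraries. Its level is therefore not given, and this says nothing about whether its RNA was present. Genes with few exons are rarely in these tables. Some library held a level for 2.85% of the 1331 protein-coding genes with 1 exon, 19.6% of the 1917 with 2 exons and 71% of the 18703 with 3 or more. Socs3 and Cntf have 2 exons at most in the annotation.

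Counted together, 6 of the 10 members could be compared at each day, and Osmr was higher than sham at all 5. At day 1, 2 of 6 were higher (Osmr and Stat3) and 0 lower, where 5.11% of all 11790 genes compared were higher and 4.48% lower. At days 3, 7 and 28 Osmr alone was higher and none was lower, where 8.54%, 8.53% and 3.68% of all genes were higher and 2.53%, 2.12% and 2.79% lower. At day 14, 1 was higher (Osmr) and 1 lower (Il6ra), where 8.97% of all genes were higher and 6.92% lower. With 6 genes, of which Osmr could only count as higher, these counts describe the members and are too small to set them apart from other genes. The median log2 ratio of the 6 was 0.38, 0.54, 0.41, −0.07 and 0.05 on days 1, 3, 7, 14 and 28, against 0.01, 0.03, 0.03, 0.10 and 0.03 over all genes compared.

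**Figure D3:**
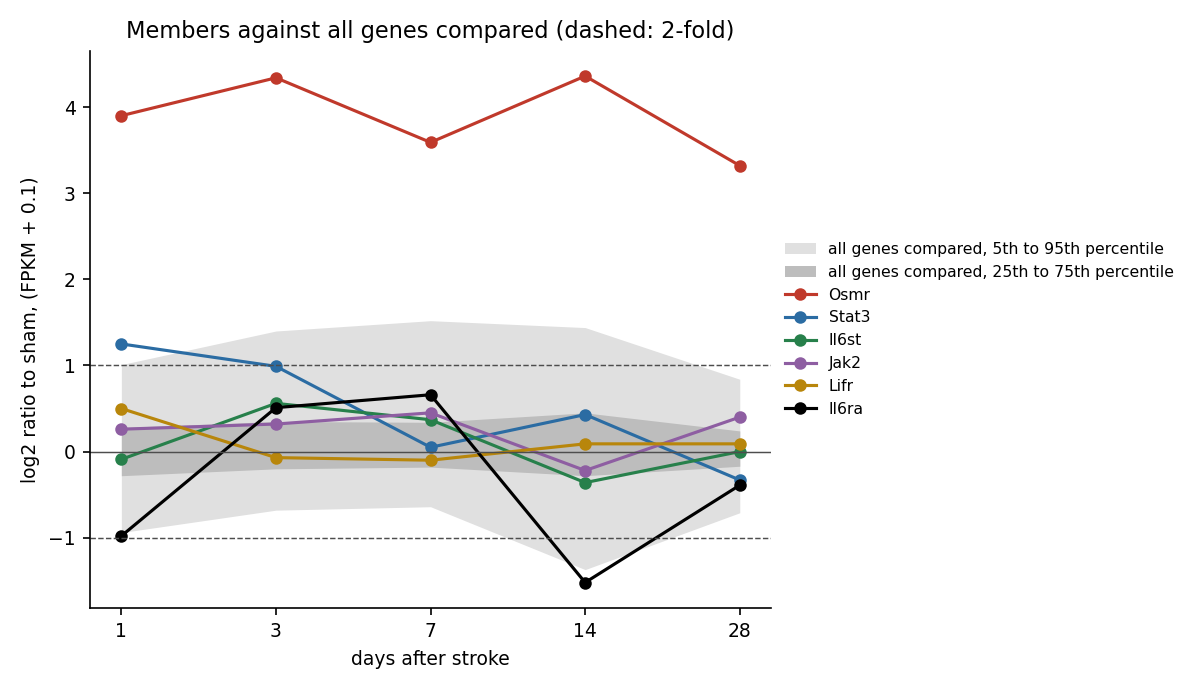
Log2 ratio to sham of (FPKM + 0.1) (vertical axis) against days after stroke (5 evenly spaced points) for the 6 members compared, 1 library per point, over the range of all genes compared (light grey, 5th to 95th percentile, and dark grey, 25th to 75th). Osmr lies above 3 at every day, Stat3 passes the dashed 2-fold line on day 1 (1.25), and Il6ra passes it on day 14 (−1.52).

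The other genes of the pathway were taken as a list of 36: further ligands and receptors, Janus kinases and Stat factors, adaptors, and inhibitors. Of these, 30 had a value. The counts past 2-fold were 0 higher and 1 lower of 26 compared on day 1, 2 higher and 0 lower of 27 on day 3, 3 and 0 of 27 on day 7, 4 and 1 of 27 on day 14, and 1 and 0 of 27 on day 28. In either direction, 9.58%, 11.1%, 10.7%, 15.9% and 6.47% of all genes were past 2-fold at these days. The median log2 ratios of the list were −0.06, 0.15, 0.13, 0.20 and 0.20.

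Among the other ligands, Ebi3, a subunit of interleukin-27, was past 2-fold only on day 14, with 1.94 FPKM against 0.767 in sham (log2 ratio 1.23). Ebi3 was below an FPKM of 1 in sham, so it could count only as higher. Its longest transcript has 1154 bases, and day 14 had the strongest trend with transcript length. With a correction for that trend, 4 in place of 5 of the other pathway genes were past 2-fold on day 14. A corrected value for Ebi3 alone is not given. Ctf1, cardiotrophin 1, was past 2-fold only on day 1, as lower, with 0.448 FPKM against 1.03 (log2 ratio −1.04). Il6 and Clcf1, named after their values were seen, stayed below an FPKM of 1. Day 7 was the one library in which Il6 was listed, at 0.329 FPKM, which does not show that it was absent from the others. The paper describes Il6 as rising biphasically, in its acute and its sub-acute phase. Clcf1 was at 0.17, 0.887 and 0.178 FPKM on days 1, 3 and 7. Il11, Il27, Il27ra, Jak3, Stat4 and Socs1 had no value in any library.

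Stat2, which carries interferon signals, was at its highest later than Stat3. It was at 2.13 FPKM in sham, 4.27 on day 1, 3.74 on day 3, 5.16 on day 7, 4.53 on day 14 and 4.15 on day 28, past 2-fold on day 7 (log2 ratio 1.24) and day 14 (1.06). Tyk2, a further Janus kinase bound to gp130 and interferon receptors, was at 1.89 FPKM in sham, 2.14, 3.34 and 3.19 on days 1, 3 and 7, 6.06 on day 14 and 2.23 on day 28, past 2-fold on day 14 alone (log2 ratio 1.63).

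The branch that couples gp130 to the Ras pathway was represented by 5 adaptors, all compared at each day, of which Shc1 was past 2-fold. It was at 2.26 FPKM in sham, 4.15 on day 1, 5.8 on day 3, 5.33 on day 7, 3.74 on day 14 and 2.71 on day 28, with log2 ratios of 1.32 on day 3 and 1.20 on day 7. Of the 14 other inhibitors, 13 were compared. Ptpn6, the phosphatase SHP-1 of blood cells and microglia, was at 1.79 FPKM in sham, 2.84 on day 1, 5.96 on day 3, 9.89 on day 7, 7.08 on day 14 and 2.05 on day 28, with log2 ratios of 1.68, 2.40 and 1.93 on days 3, 7 and 14. Cish, a relative of Socs3, was at 0.723 FPKM in sham and 1.81 on day 28 (log2 ratio 1.21), and was within 2-fold at the other days. Like Ebi3, Cish was below an FPKM of 1 in sham and could count only as higher. Socs4 was counted as lower on day 14 because it was not listed there, against 2.07 FPKM in sham.

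Markers of other cells moved with these genes, and their part in the pathway values was not tested. The 7 microglial markers, of which 5 or 6 were listed in each library, summed to 149.7 FPKM in sham, 157 on day 1, 388 on day 3, 564 on day 7, 401 on day 14 and 158 on day 28. Ptpn6 and Stat2 were highest in the same library, day 7. The 8 markers of neutrophils and monocytes summed to 1.37 FPKM in sham, 19.8 on day 1, 8.05 on day 3, 8.2 on day 7, 15.9 on day 14 and 3.89 on day 28, with Ly6g not listed in any. In these libraries 2, 6, 5, 5, 5 and 2 of the 8 were listed, and a marker not listed added 0. S100a9 gave 10.1 FPKM on day 1 and 5.32 on day 14 and was not listed elsewhere, while Csf3r was highest on day 7 (5.74 FPKM). The sums were 24.9 in sham and 105 FPKM on day 7 for the fibroblast and meningeal list, 9.28 in sham and 18.7 FPKM on day 3 for the endothelial list, and 1.83 to 6.06 FPKM across libraries for the lymphocyte list. Of the 6 lymphocyte markers, 1 was listed in sham and on day 1, and 4 on day 14. Neuron markers summed to between 1375 FPKM (day 3) and 1888 FPKM (sham), and oligodendrocyte markers to between 1418 (day 28) and 2018 FPKM (day 1).

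**Figure D4:**
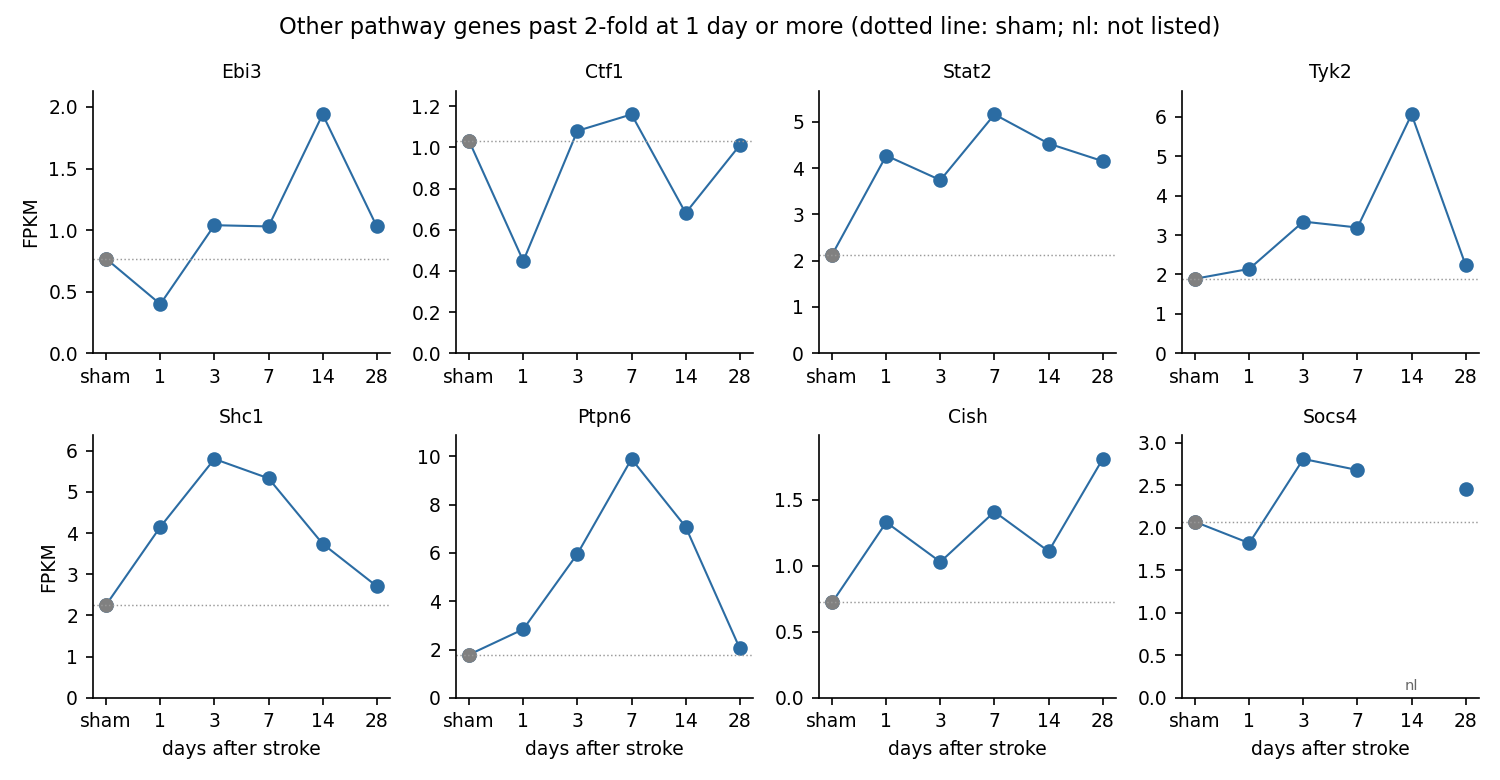
FPKM (vertical axis, from 0, a scale of its own for each gene) of the 8 other pathway genes past 2-fold at 1 day or more, in sham (grey point and dotted line) and on days 1 to 28 after stroke (blue), 1 library per point. Stat2 and Ptpn6 are highest on day 7 (5.16 and 9.89 FPKM), Ebi3 and Tyk2 on day 14, and Socs4 is not listed (nl) on day 14.

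Since Socs3 could not be read, the genes known to be induced through Stat3 were taken as a list of 30, of which 26 had a value. These genes are also induced through other factors, so the list does not measure Stat3 activity. At day 1, 18 of 24 compared were higher than sham and 0 lower, where 5.11% of all genes were higher. The counts were 16 higher of 25 on day 3, 13 of 23 on day 7 and 14 of 25 on day 14, with 0 lower, and 6 higher and 1 lower of 20 on day 28, where 8.54%, 8.53%, 8.97% and 3.68% of all genes were higher. Some of these genes could only count as higher, because they reached an FPKM of 1 in the stroke library and not in sham. They were 8 of the 24 on day 1, 9 of 25 on day 3, 7 of 23 on day 7, 9 of 25 on day 14 and 4 of 20 on day 28. Among the 16 genes that reached an FPKM of 1 in sham, 10, 8, 7, 6 and 2 were higher on days 1, 3, 7, 14 and 28, where 2.57%, 4.26%, 4.15%, 4.67% and 1.6% of all 11277 such genes were. On day 28, 1 of the 16 was lower. The list was chosen with earlier results known, so these counts describe it and do not set it apart. The median log2 ratios were 1.92, 1.63, 1.16, 1.45 and 0.53 over all genes of the list compared, and 1.51, 1.26, 1.14, 0.90 and 0.44 over the genes listed in both libraries. Of the 26 genes, 10 had their highest FPKM on day 1, 8 on day 3, 1 on day 7, 4 on day 14, 2 on day 28 and 1 in sham. Of all 12709 genes that reached an FPKM of 1, 1978 had it on day 1, 2098 on day 3, 1817 on day 7, 3407 on day 14, 1774 on day 28 and 1635 in sham.

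The 10 genes of the list with their highest value on day 1 were Fos, Myc, Bcl3, Pim1, Mcl1, Bcl2l1, Nfkbiz, Cyr61, Ier3 and Tnfrsf12a. Pim1, a kinase that promotes cell survival, was at 0.919 FPKM in sham, 3.72 on day 1 and between 0.988 and 1.63 later, past 2-fold on day 1 only (log2 ratio 1.91). Myc, a growth factor response gene, was at 1.33 FPKM in sham, 3.66 on day 1 (log2 ratio 1.40), between 1.54 and 1.73 on days 3 to 14 and 0.582 on day 28, where it was lower than sham (log2 ratio −1.06). Cyr61, a matrix protein also called Ccn1, was at 2.19 FPKM in sham and 14.3 on day 1 (log2 ratio 2.65). On day 3, at 4.45 FPKM, it missed the threshold by a small margin (log2 ratio 0.99). The log2 ratios on days 7, 14 and 28 were 0.90, 0.52 and 0.59. Nfkbiz, a nuclear regulator of inflammatory genes, was at 0.426 FPKM in sham, 3.22 on day 1, 1.91 on day 3, 2.06 on day 7, 1.53 on day 14 and 1.14 on day 28, past 2-fold at all 5 days. Tnfrsf12a, the receptor of the cytokine TWEAK, was at 1.29 FPKM in sham, 11.3 on day 1, 6.36 on day 3, 2.96 on day 7, 5.08 on day 14 and 2.19 on day 28. Ier3 was past 2-fold on day 1 alone, at 9.9 FPKM against 3.87 in sham. Fos, which many stimuli induce, was past 2-fold on days 1, 3, 7 and 28, with 3.74 FPKM in sham, 16.1 on day 1 and 13.9 on day 28.

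A group of 7 genes of the list that are known from reactive glia (Gfap, Vim, Lcn2, Serpina3n, Steap4, Cd44 and Timp1), put together after their values were seen, were highest on day 3 or day 14. Gfap, the intermediate filament of astrocytes, was at 85.8 FPKM in sham, 329.9 on day 1, 698 on day 3, 422 on day 7, 380.0 on day 14 and 149.7 on day 28. Vim, the filament vimentin, was at 15.5 FPKM in sham, 64.2 on day 1, 167 on day 3, 81.5 on day 7, 67.6 on day 14 and 21 on day 28. Both were past 2-fold on days 1 to 14 and within it on day 28. Serpina3n, a secreted protease inhibitor, was past 2-fold at all 5 days, with 5.3 FPKM in sham, 37.5 on day 1, 68 on day 3, 38.8 on day 7, 62 on day 14 and 11.8 on day 28. Lcn2, lipocalin 2, was not listed in sham and was at 15.5, 16.9, 3.09, 26.6 and 1.1 FPKM on days 1, 3, 7, 14 and 28. Timp1, an inhibitor of matrix proteases, was at 0.278 FPKM in sham and at 16.2, 16.5, 5.33 and 6.86 on days 1 to 14, and was not listed on day 28. Cd44, a receptor for matrix, was at 0.582 FPKM in sham and between 3.86 and 5.33 on days 1 to 14, and Steap4, a metal reductase, was not listed in sham or on day 7 and reached 2.72 FPKM on day 14. The 7 astrocyte markers, Gfap among them, summed to 857 FPKM in sham, 945 on day 1, 1512 on day 3, 1231 on day 7, 1154 on day 14 and 884 on day 28. Without Gfap the sums were 771, 615, 814, 809, 774 and 735 FPKM.

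With these 7 genes left out, 11 of 17 compared were higher on day 1, 9 of 18 on day 3, 7 of 17 on day 7, 7 of 18 on day 14 and 4 of 16 on day 28. Of all genes compared, 5.11%, 8.54%, 8.53%, 8.97% and 3.68% were higher at these days. Of the 13 among them that reached an FPKM of 1 in sham, and so could count in either direction, 7, 5, 4, 3 and 1 were higher. The shares of all such genes were 2.57%, 4.26%, 4.15%, 4.67% and 1.6%. The 7 genes were grouped after their values were seen, so these counts too only describe the list.

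The other 8 genes of the list past 2-fold were Icam1, Irf1, Tnfrsf1a, Il4ra, Ccnd1, Bcl3, Il1r1 and Cebpd, of which Bcl3 alone was highest on day 1. Icam1, an adhesion molecule for leukocytes, was at 0.905 FPKM in sham, 2.66 on day 1, 3 on day 3, 3.13 on day 7, 3.65 on day 14 and 0.647 on day 28. Irf1, a transcription factor of the interferon response, was at 1.65 FPKM in sham, 3.6 on day 1, 3.23 on day 3, 3.82 on day 7, 4.67 on day 14 and 2.32 on day 28. Both had their highest value on day 14, with log2 ratios of 1.90 and 1.45. Tnfrsf1a, a receptor of tumour necrosis factor, was at 4.33 FPKM in sham, between 10 and 14.1 on days 1 to 14 and 4.15 on day 28. Il4ra, the interleukin-4 receptor, was past 2-fold on day 3 alone, at 3.19 FPKM against 1.27 (log2 ratio 1.26), as was Ccnd1, the cell cycle protein cyclin D1, at 25.3 against 9.4 (1.42). Bcl3, Il1r1 and Cebpd were not listed in sham. Bcl3, a partner of NF-kappaB, was at 1.9, 1.88, 0.82, 1.19 and 0.671 FPKM on days 1, 3, 7, 14 and 28, Il1r1, the interleukin-1 receptor, at 0.386, 1.38, 1.42, 0.402 and 1.17, and Cebpd, a transcription factor, at 3.81 and 3.89 on days 14 and 28 only.

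Some genes of the list stayed within 2-fold of sham at every day. Bcl2l1, the survival factor Bcl-xL, was at 29.9 FPKM in sham and 42.9 on day 1, and Mcl1, of the same family, at 18.4 and 30.1, both within 2-fold at every day. Vegfa, the vascular growth factor, was at 21.2 FPKM in sham, its highest value, and at 11.1 on day 14 (log2 ratio −0.93). Junb, Cebpb, Hif1a and Zfp36 had no value in any library. All 5 comparisons share the sham library, so a low or high sham value of a gene moves its 5 ratios together.

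**Figure D5:**
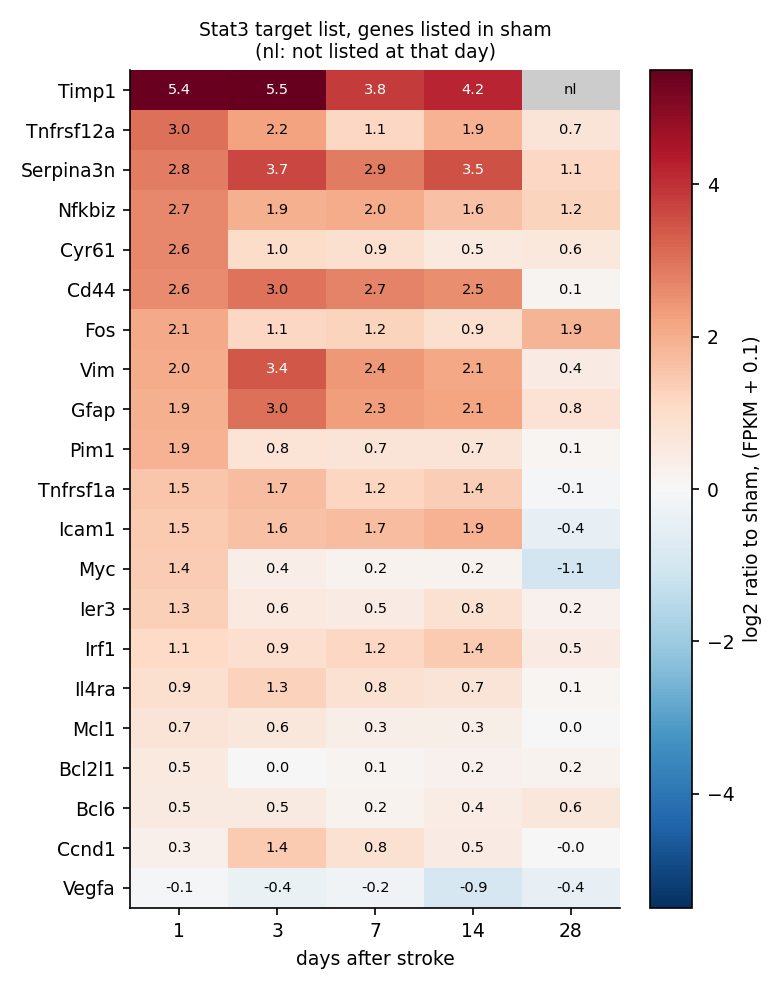
Log2 ratio to sham of (FPKM + 0.1) (colour and printed value) on days 1 to 28 after stroke for the 21 genes of the Stat3 target list that were listed in sham, ordered by the ratio on day 1, 1 library per column. Timp1 has the highest ratios on days 1 and 3 (5.43 and 5.46), and Vegfa is below 0 at every day. Cyr61 and Pim1 reach a log2 ratio of 1 on day 1 only, with Cyr61 at 0.99 on day 3.

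The genes whose time course lay closest to those of Stat3 and Osmr were found by the Euclidean distance between their log2 ratios over the 5 days, among 11544 genes. Closest to Stat3 were Trip10 (distance 0.45), Hbegf (0.62), Alyref (0.64), Fbl (0.66) and Gadd45a (0.66). Trip10 was at 1.91 FPKM in sham, 5.23 on day 1, 3.45 on day 3, 2.45 on day 7, 2.68 on day 14 and 1.8 on day 28, with the same high first 2 stroke libraries as Stat3. Closest to Osmr were Sbno2 (1.11), Igsf1 (1.20), Haus3 (1.25), Gm44168 (1.76) and Cxcl5 (1.90), all more distant than the 5 neighbours of Stat3 and all, like Osmr, near 0 in sham (0.048 to 0.167 FPKM). Sbno2 was at 0.145 FPKM in sham, 7.14 on day 1, 5.8 on day 3, 3.46 on day 7, 4.29 on day 14 and 1.87 on day 28. Likeness here is that of 5 ratios which share 1 sham library, and no neighbours could be found for Socs3.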

How the data were processed

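Poly(A)-selected, strand-specific libraries of the whole ipsilateral cortex (6 libraries, 1 per group, RNA of 3 mice pooled) were sequenced as paired reads of 150 bases, to a stated average of 33.6 M reads. The deposited values are FPKM, which the authors computed for events (starts and ends of transcripts, and splicing). The submitters' processing notes name Trimmomatic 0.30, HISAT2 2.0.1, HTSeq 0.6.1 and mm10, and the transcript assembler is not given in the sources used here. Since depth per library is not known, neither intervals nor detection floors are given.

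Events were assigned to genes by Ensembl identifier (15441 identifiers, of which 15411 matched GENCODE M21, while 879 loci had none), and 93.3% lay inside the gene's annotated span on its strand. Genes not listed in a library counted as 0 in counts. The pseudocount was 0.1, the minimum 1 FPKM in either library and the threshold a log2 ratio of 1. The members, the way of building a gene value and all gene lists were chosen with earlier results of these data known. Pathway and Stat3 target genes are named where they reached an FPKM of 1 and were past 2-fold at 1 day or more, with exceptions named in the text. The nearest time courses were the 5 genes of smallest distance. The code for the calls was tested on simulated data, in which all 200 changed genes of 13267 were recovered with 0 false calls. The changes set in were all past the threshold, in genes above the FPKM minimum in sham. The noise was small, and every gene had start and end events in each library. Recovery was therefore to be foreseen, and the test gives no error rate for the real libraries. Computations were run in Python 3.11.15 with pandas 2.3.3, numpy 2.4.6 and, for Spearman's rho, scipy 1.17.1; figures were drawn with matplotlib 3.10.9. Some genes of the pathway are not reported here and were left out of its list.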

Additional observations from a re-analysis of the deposited data

How the results depend on the processing

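No paired analysis was possible because each group has 1 library, so nothing could be left out either. The calls were repeated with a pseudocount of 1, with start sums or end sums alone, with no FPKM minimum, with genes listed in both libraries only, with a log2 threshold of 2, with events inside the span only, with scaling to the median ratio and with a correction for transcript length. The last 3 moved no call of a member, and no count by over 1.5 times except 1 given below. Depth per library is not known, so the limit it sets on low values such as those of Lif, Osm and Osmr in sham cannot be given. An FPKM of at least 1 in sham was added after the data were seen.

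The count of members higher than sham, 2 at day 1 and 1 at each later day, became 0 at days 14 and 28 with start sums, 1 at day 1 and 2 at days 3 and 7 with end sums, 3 at day 1 and 2 at days 3 and 7 with no minimum, 1 at day 1 with the threshold of 2, and 1 at day 1 and 0 at every later day with the minimum in sham, which leaves out Osmr. The count lower, otherwise 1 at day 14 alone, became 0 there with a pseudocount of 1, end sums or the threshold of 2. Start sums gave 1 lower member at day 1, Lifr, and 2 at day 14, Lifr and Il6ra. In the day 14 library neither gene had a listed start, so both counted as 0 and no decrease was measured. Start sums also raised the share of all genes called lower, from 4.48% to 7.88% (day 1) and from 6.92% to 16.9% (day 14). The log2 ratio of Stat3 at day 1 turned to −0.23 with end sums, which hold only ends of transcripts with retained introns, and that of Osmr was 1.47 at day 1 with a pseudocount of 1.

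Of the other pathway genes, 1, 2, 3, 5 and 1 were past 2-fold in either direction at days 1, 3, 7, 14 and 28. With a pseudocount of 1 the count became 0, 1, 3 and 0 at days 1, 7, 14 and 28. Start sums gave 2, 4 and 2 at days 1, 3 and 28, end sums gave 1 and 3 at days 7 and 14, no minimum gave 3 and 5 at days 1 and 7, and the length correction gave 2 at day 1. At the threshold of 2, the counts were 0, 0, 1, 1 and 0, and with the minimum in sham 0 at day 28. For the Stat3 target list, 18, 16, 13, 14 and 7 were past 2-fold, 11, 10, 8, 9 and 3 at the threshold of 2, 10, 8, 7, 6 and 3 with the minimum in sham, and 4 at day 28 among genes listed in both libraries. The cause of these shifts was not tested.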
